A study of Homo sapiens with 12 samples.

Results

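The genes described here encode the nuclear lamina and a set of proteins of the inner nuclear membrane, the inner face of the double membrane around the nucleus. They are 8 genes, LMNA, LMNB1, LMNB2, LBR, TMPO, EMD, LEMD3 and BANF1, taken by symbol from the authors' differential expression table and joined by gene identifier to the 6 RNA columns. All 8 were found among the 19460 genes of the table, and all 8 passed the filter on low values that left 15869 genes. Their alternative splicing events, 86 of 145447 in all, and the ATAC-seq peaks in or near them were examined as well.

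The cells were T-47D, an established luminal, oestrogen receptor positive human breast cancer line obtained from ATCC, labelled wild type in the RNA samples. Palbociclib, which blocks the cyclin D kinases CDK4 and CDK6 and holds cells before S phase, was given at 1 µM for 24 h, and controls received DMSO for the same time, at 0.1% in the ATAC-seq medium. Poly(A) RNA sequencing and ATAC-seq, which reads where the transposase Tn5 can reach the DNA, were each run on 3 biological replicates per treatment. The labels do not say that replicate numbers pair libraries across treatments.

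Lamins are intermediate filament proteins that form a mesh under the inner nuclear membrane. LMNA gives lamins A and C, while LMNB1 and LMNB2 give the B-type lamins, which keep a lipid anchor and stay at the membrane. LBR, the lamin B receptor, is a multi-pass membrane protein that binds B-type lamins and heterochromatin protein 1 and also carries sterol C14 reductase activity. TMPO (the LAP2 proteins), EMD (emerin) and LEMD3 (MAN1) share the LEM domain, which binds BANF1, the barrier-to-autointegration factor that crosslinks DNA at the nuclear surface. The envelope is taken apart and rebuilt at each mitosis, and loss of lamin B1 is a widely used mark of cells that have left the cycle for senescence.

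The RNA levels are FPKM, fragments scaled by transcript length and library, so values may be compared between genes; the read depth behind them is not given by these values. Correlations of log2(FPKM + 1) between libraries of a treatment were at least 0.995, and between treatments at most 0.971. Of the 15869 genes tested, 3628 were lower and 3312 higher at an adjusted p under 0.05 from limma. The higher share of the calls was 47.7%, against 31.5% after rescaling each column to a common total and 61.6% after quantile normalization. All 8 luminal epithelial markers were listed, with a summed level of 5419 to 5939 FPKM in DMSO and 7312 to 8084 FPKM in palbociclib, and 7 of the 8 were higher, of which ESR1 and FOXA1 were not called after rescaling each column to a common total. Of the fibroblast markers COL1A1 was expressed, with a summed list level of 23.5 to 26.3 FPKM over the 6 libraries, the leukocyte markers summed to at most 0.173 FPKM, and no endothelial or basal marker was among the genes listed. What part the rise of luminal markers has in the changes below was not tested. ATAC reads within the 38121 peaks numbered 12830062 to 18250496 per library.

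Of the 8 genes, 7 were lower in palbociclib-treated cells and 0 were higher, where 22.9% of all genes tested were lower and 20.9% higher. At an unadjusted p under 0.05 the number higher was also 0, as it was in the authors' deposited DESeq2 table. For each of the 8 genes the 3 palbociclib libraries lay below the 3 DMSO libraries, as they did for 28.2% of all genes, and groups that do not overlap in either direction made up 54.7%. A fall of at least 1 on the log2 scale was found for 4 members, LMNB1, TMPO, LMNB2 and LBR, against 3.04% of all genes. The median log2 change was -0.68 over the 8 genes and 0.0023 over all genes tested. In a bulk culture, a change in the mix of cells by cycle phase and a change in RNA per cell cannot be told apart.

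**Figure D1:**
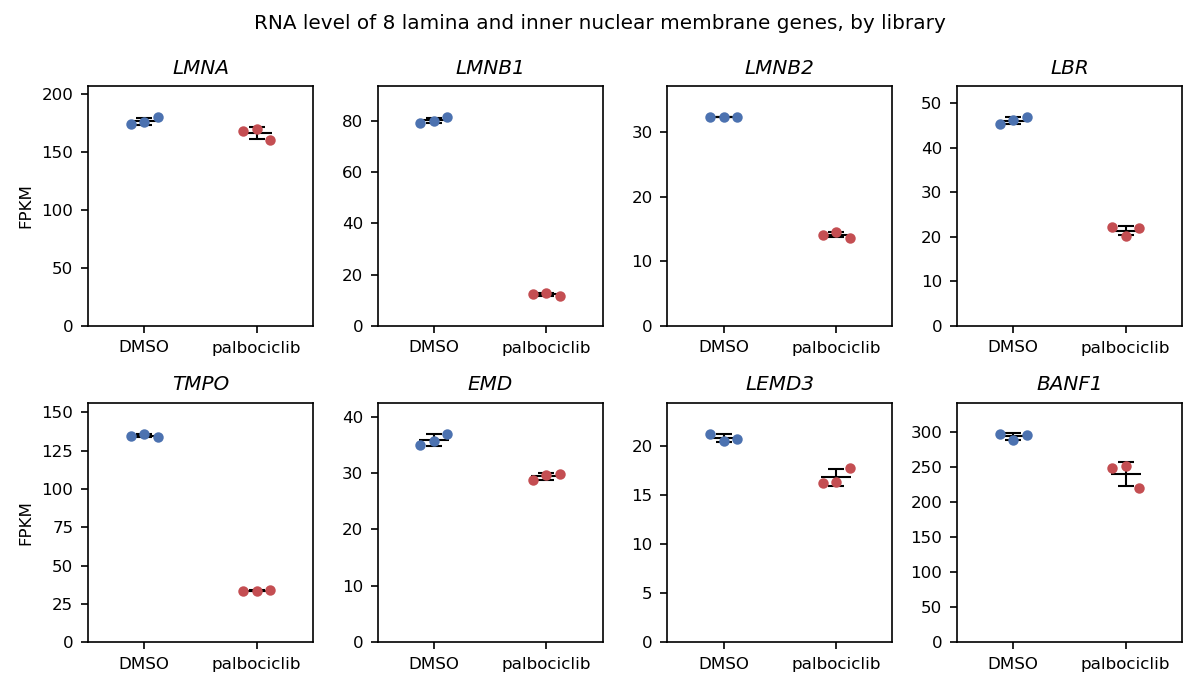
RNA level in FPKM (vertical axes, each from 0) of the 8 genes in 3 DMSO and 3 palbociclib libraries; points are libraries, and bars give the mean and SD. LMNB1 and TMPO are separated most, at 80.1 against 12.3 FPKM and 134.9 against 33.8 FPKM, and LMNA least.

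The starts of the genes that fell most, and those of LMNA, are shown so that the sequence ahead of each can be read beside its values. Each is the 250 bases before a start annotated by RefSeq on GRCh38.p14, written 5′ to 3′ on the gene's strand. They are chr5:126776886-126777135 on the + strand for LMNB1, chr12:98515323-98515572 on the + strand for TMPO, chr1:225428822-225429071 on the - strand for LBR, and chr19:2456960-2457209 on the - strand for LMNB2. LMNB1 and TMPO have 2 annotated starts each, and the later is shown for LMNB1 and the earlier for TMPO. For LMNA the windows are chr1:156082323-156082572 and chr1:156106466-156106715, both on the + strand, ahead of the first and the last of its 3 annotated starts. Few reads joined from exons at these starts. Per 1000 reads of an inner LMNA junction, 7.92 to 22.7 joined the exon at the downstream start to the next. Reads joining the exon chr1:156082948-156083184 to 156114670 numbered 0 to 1 per library, and those joining it to 156114713 numbered 0 to 4. Reads joining 156115274 to 156130617 numbered 1645 to 2569. The LMNA windows may thus not lie ahead of most LMNA RNA. Splicing events also list LMNA exons beginning at 156114711 and 156114713, and no window ahead of those was taken. Capitals mark matches to an E2F-type site (TTTGGCGC, TTTCGCGC, TTTCCCGC or TTTGCCGC), to the cell cycle homology region (TTTGAA or TTCGAA), and to CCAAT, on either strand.
LMNB1: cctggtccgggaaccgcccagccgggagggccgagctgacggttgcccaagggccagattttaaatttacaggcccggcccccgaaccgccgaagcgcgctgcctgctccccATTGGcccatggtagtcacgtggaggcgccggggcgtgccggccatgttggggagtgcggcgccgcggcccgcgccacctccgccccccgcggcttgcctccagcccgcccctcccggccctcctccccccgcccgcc
TMPO: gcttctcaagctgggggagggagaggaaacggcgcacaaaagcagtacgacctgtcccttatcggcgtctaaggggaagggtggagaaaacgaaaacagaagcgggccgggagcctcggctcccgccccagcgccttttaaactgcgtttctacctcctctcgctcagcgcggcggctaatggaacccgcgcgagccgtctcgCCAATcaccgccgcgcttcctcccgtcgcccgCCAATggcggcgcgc
LBR: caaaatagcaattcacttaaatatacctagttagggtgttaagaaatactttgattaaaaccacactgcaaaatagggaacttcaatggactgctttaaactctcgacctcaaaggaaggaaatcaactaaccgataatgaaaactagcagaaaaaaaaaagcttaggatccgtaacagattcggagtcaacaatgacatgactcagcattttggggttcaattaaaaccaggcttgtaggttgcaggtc
LMNB2: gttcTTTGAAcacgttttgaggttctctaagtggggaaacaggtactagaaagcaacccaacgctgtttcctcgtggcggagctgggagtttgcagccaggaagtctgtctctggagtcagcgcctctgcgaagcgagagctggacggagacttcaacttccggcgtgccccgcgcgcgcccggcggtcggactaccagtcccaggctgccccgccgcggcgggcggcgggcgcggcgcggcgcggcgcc
LMNA upstream start: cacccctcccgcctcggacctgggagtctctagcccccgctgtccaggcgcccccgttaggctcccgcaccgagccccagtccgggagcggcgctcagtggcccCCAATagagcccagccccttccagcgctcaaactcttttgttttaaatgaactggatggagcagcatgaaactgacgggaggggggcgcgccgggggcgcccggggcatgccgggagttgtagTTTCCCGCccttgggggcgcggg
LMNA downstream start: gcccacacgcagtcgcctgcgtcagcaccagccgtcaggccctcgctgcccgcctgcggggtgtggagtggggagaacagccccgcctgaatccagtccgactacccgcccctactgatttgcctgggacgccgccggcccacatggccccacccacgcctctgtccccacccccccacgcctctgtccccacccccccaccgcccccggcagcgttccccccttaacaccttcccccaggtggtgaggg

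The motifs were counted in the 12 windows of 300 bases that RefSeq starts of the 8 genes give, and in 35116 windows of the same length over all genes. CCAAT was in 6 of the 12 windows, those of 5 genes, and in 34.6% of all windows. In the LMNB1 window shown it stood as ATTGG 138 bases before the start, and in that of TMPO it occurred at 47 and at 15 bases before the start. The window of the other LMNB1 start, 126776623, held no match to any motif counted. An E2F-type match was in 2 of the 12 windows and in 3.31% of all windows. Both were TTTCCCGC, one 23 bases before the upstream LMNA start and the other 134 bases before the LEMD3 start. The cell cycle homology letters were in 1 member window, that of LMNB2 at 246 bases before the start, and in 16.4% of all windows. The SP1 letters GGGCGG were in 9 of the 12 windows against 45.0% of all, and the palindromic NRF1 consensus in 0 of 12 against 1.24%. A match describes letters in the window, matches of different motifs may overlap, and the windows of 1 gene can overlap each other.

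LMNB1, the B-type lamin that is lost in senescent cells, fell most. Its level was 79.2, 79.9 and 81.4 FPKM in the DMSO libraries and 12.3, 13.0 and 11.7 FPKM in the palbociclib libraries. Every treated library lay far below every control, and the spread within a treatment was small beside the gap. The mean went from 80.1 ± 1.11 to 12.3 ± 0.682 FPKM (SD, n = 3), 15.4% of the control level. The log2 change of FPKM + 1 was -2.61 (SE 0.044, limma adjusted p = 1.06e-09), and 108 genes, 0.681% of those tested, fell further.

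LMNB2, the other B-type lamin gene, fell less. It stood at 32.3 FPKM in each of the 3 DMSO libraries and at 14.1, 14.5 and 13.7 FPKM with palbociclib. The treated libraries again lay together and below all controls. The mean went from 32.3 ± 0.0141 to 14.1 ± 0.418 FPKM (SD, n = 3), a log2 change of -1.14 (SE 0.038, limma adjusted p = 7.24e-08). The limma interval of that change, -1.23 to -1.05, lay apart from that of LMNB1, -2.71 to -2.51, with 95% confidence for each gene; the 2 genes were compared directly only through the ratio of their levels, given below.

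LMNA, the gene of lamins A and C, was by level the leading lamin gene in every library. Its values were 174, 176 and 180 FPKM in DMSO and 168, 170 and 160 FPKM in palbociclib. The treated values were below the control values without overlap, by a margin small beside those of the B-type genes. The means were 176.6 ± 2.96 and 166.1 ± 5.31 FPKM (SD, n = 3), and the log2 change of -0.09 (SE 0.033, 95% interval -0.16 to -0.01) did not pass the threshold at a limma adjusted p of 0.0595. After rescaling each column to a common total it was called, at -0.17 with an adjusted p of 0.0018, and after quantile normalization at -0.07 with an adjusted p of 0.0385. In the authors' deposited table its adjusted p was 0.0556.

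The make-up of lamin RNA shifted with these changes. The ratio of LMNA to the sum of LMNB1 and LMNB2, all in FPKM, was 1.56, 1.57 and 1.58 in the DMSO libraries and 6.36, 6.17 and 6.31 in the palbociclib libraries. No treated library came near a control. The mean ratio was 1.57 ± 0.0109 against 6.28 ± 0.103 (SD, n = 3), a log2 difference of 2.00. In an exact two-sided permutation test p was 0.1, the smallest that 3 against 3 libraries can give. LMNA made up 61.1% ± 0.164 of lamin FPKM in DMSO and 86.3% ± 0.196 in palbociclib (SD, n = 3), while the LMNB1 share went from 27.7% to 6.40% and the LMNB2 share from 11.2% to 7.34%. The order of the B-type genes turned over. LMNB1 was 2.48 ± 0.0354 times LMNB2 in controls and 0.872 ± 0.0225 times LMNB2 after treatment (SD, n = 3), with the same exact permutation p of 0.1. Summed lamin RNA was 289.0 ± 4.06 FPKM in DMSO and 192.5 ± 6.34 FPKM in palbociclib (SD, n = 3).

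**Figure D2:**
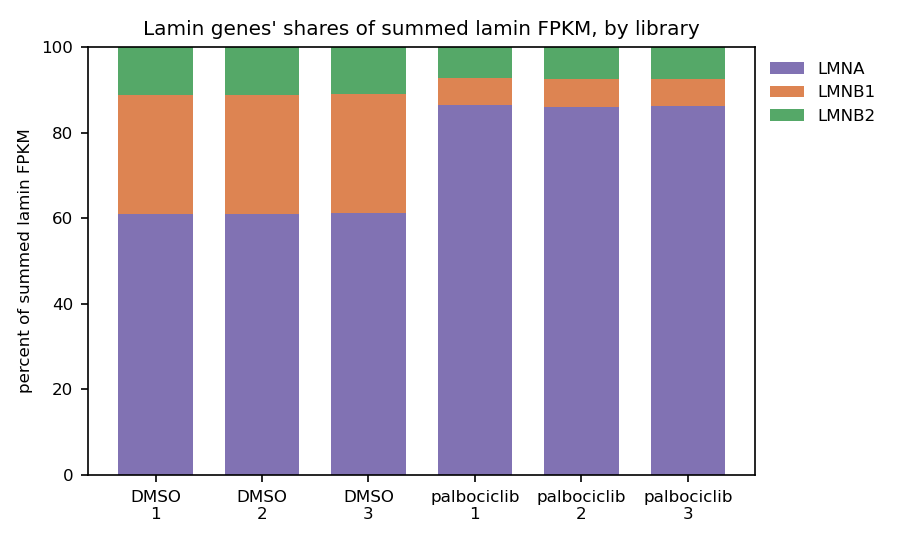
Shares of summed lamin FPKM (vertical axis, percent) held by LMNA, LMNB1 and LMNB2 in each of the 6 RNA libraries. The LMNA share is near 61% in the 3 DMSO libraries and near 86% in the 3 palbociclib libraries, and the LMNB1 band narrows most.

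LBR, which ties B-type lamins and heterochromatin to the membrane, fell to under 50% of its control level. It was at 45.4, 46.2 and 46.9 FPKM in DMSO and at 22.1, 20.2 and 22.0 FPKM in palbociclib. Controls and treated libraries formed separate groups. The mean went from 46.2 ± 0.740 to 21.4 ± 1.05 FPKM (SD, n = 3), a log2 change of -1.07 (SE 0.043, limma adjusted p = 2.47e-07). LBR and LMNB2 stand next to each other in size of change, and their 95% intervals, -1.17 to -0.97 and -1.23 to -1.05, overlap.

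TMPO, whose products include the lamin B-binding LAP2β and the nucleoplasmic LAP2α, was second in size of change. It stood at 134, 136 and 134 FPKM in DMSO and at 33.7, 33.6 and 34.2 FPKM in palbociclib. Replicates agreed closely on each side of a wide gap. The mean went from 134.9 ± 1.08 to 33.8 ± 0.335 FPKM (SD, n = 3), 25.1% of control, with a log2 change of -1.96 (SE 0.028, limma adjusted p = 5.83e-10). It fell by more than any other LEM domain gene tested.

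The other LEM domain members and BANF1 fell by much smaller amounts. EMD, emerin, was at 34.9, 35.8 and 36.9 FPKM in DMSO and at 28.7, 29.6 and 29.9 FPKM in palbociclib, a log2 change of -0.28 (SE 0.037, limma adjusted p = 0.000437). LEMD3, which also binds receptor SMADs, was at 21.2, 20.5 and 20.6 FPKM in DMSO and at 16.3, 16.3 and 17.8 FPKM in palbociclib, a log2 change of -0.30 (SE 0.046, limma adjusted p = 0.00111). BANF1 was the most abundant of the 8 genes, at 297, 288 and 295 FPKM in DMSO and 249, 251 and 220 FPKM in palbociclib. Its log2 change was -0.29 (SE 0.050, limma adjusted p = 0.00188), and its treated libraries were the most widely spread, with an SD of 17.1 FPKM. The 3 changes lie within each other's 95% intervals, and each treated mean was 80.7% to 82.0% of its control. Between 2334 and 2467 genes fell by more than these 3, against 439 for LBR, so the 8 genes split into 4 with large and 3 with small falls, and LMNA.

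In DMSO the levels ran BANF1, LMNA, TMPO, LMNB1, LBR, EMD, LMNB2 and LEMD3 from high to low. In palbociclib the order was BANF1, LMNA, TMPO, EMD, LBR, LEMD3, LMNB2 and LMNB1, so LMNB1 moved from the fourth place to the last. The library values of neighbours in these orders did not overlap in either treatment.

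The genes whose 6-library pattern lay nearest to that of LMNB1 were found among 12933 genes with a symbol and a mean of at least 1 FPKM. Likeness was the root mean square difference in log2(FPKM + 1) after subtracting each gene's DMSO mean. The nearest was PCNA, the sliding clamp of DNA replication, at a distance of 0.0299, with 200.8 ± 4.53 FPKM in DMSO and 32.5 ± 1.37 FPKM in palbociclib (SD, n = 3). It was followed by FAM83D at 0.0422, a spindle protein, NCAPG2 at 0.0516, a condensin II subunit, TPX2 at 0.0560, a spindle assembly factor, and PTTG1 at 0.0612, securin. Their log2 changes ran from -2.56 for TPX2 to -2.66 for PTTG1. The distance takes in the treated libraries, so genes picked by it have changes near that of LMNB1.

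The envelope genes around the 8 were described in 7 lists holding 53 genes, of which 51 were tested. Of the 51, 26 were lower (51.0%, against 22.9% of all genes) and 5 higher (9.8%, against 20.9%), with a median log2 change of -0.12. The lists were chosen with earlier results of these data known, so these shares only describe the genes listed.

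**Figure D3:**
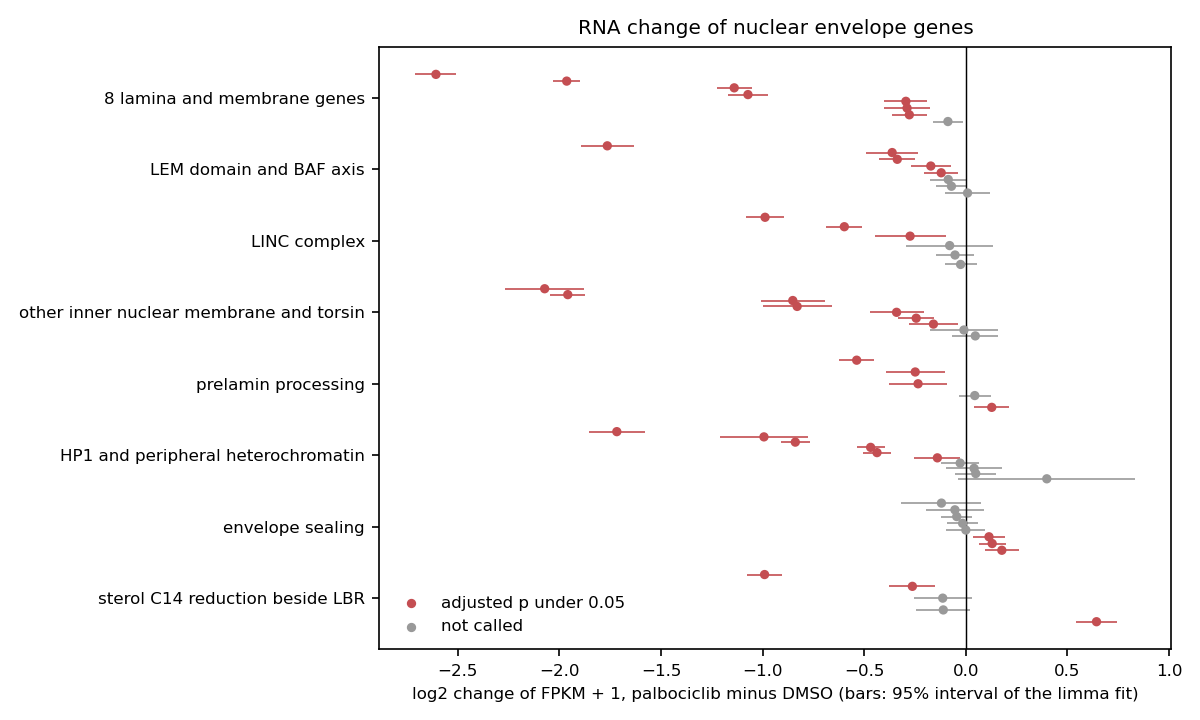
Log2 change of FPKM + 1, palbociclib minus DMSO (horizontal axis), for the 8 genes and the 51 tested genes of 7 envelope lists; points are genes, bars are 95% intervals of the limma fit, and red marks an adjusted p under 0.05. LMNB1 at -2.61 is the lowest point, followed by NRM at -2.07.

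Among the enzymes and partners of the LEM domain and BANF1, 5 of 8 tested genes were lower and 0 higher; quantile normalization gave 3 lower and rescaling each column to a common total gave 7. VRK1, the kinase that releases BANF1 from DNA, fell from 29.6 ± 2.03 to 8.00 ± 0.261 FPKM (SD, n = 3), a log2 change of -1.76. Its relative VRK2 fell by 0.36 and ANKLE2, which with protein phosphatase 2A brings BANF1 back to chromatin, by 0.34 on the log2 scale. TOR1AIP1, or LAP1, changed by -0.17, with a limma adjusted p of 0.111 after quantile normalization, and LEMD2 by -0.12. The protein phosphatase 2A genes PPP2R1A and PPP2CA, at -0.09 and -0.07, did not pass the test.

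Of the LINC complex, which couples lamina and cytoskeleton across both membranes, 3 of 6 genes were lower and 0 higher. SYNE2, a giant nesprin, went from 20.7 to 9.95 FPKM (log2 change -0.99), SUN2 changed by -0.60, and SYNE3, at under 1 FPKM, by -0.27. SUN1, which shares its role with SUN2, was at 86.6 FPKM in DMSO and 85.0 FPKM in palbociclib, a log2 change of -0.03 (SE 0.034) that did not pass the test.

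Of the other inner membrane and torsin genes, 7 of 9 were lower and 0 higher. NRM, or nurim, fell from 19.6 ± 0.235 to 3.91 ± 0.611 FPKM and NEMP1 from 39.7 ± 0.374 to 9.47 ± 0.198 FPKM (SD, n = 3), log2 changes of -2.07 and -1.96. NDC1, a membrane nucleoporin, fell by 0.85 and TMEM201, or SAMP1, by 0.83 on the log2 scale. DPY19L4, TOR1A and TOR1B fell by 0.34, 0.24 and 0.16.

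Of the prelamin processing genes, which act on lamin A and B tails, 3 of 5 were lower and 1 was higher; quantile normalization gave 1 lower and 2 higher. ICMT, the carboxyl methyltransferase of farnesylated proteins, changed by -0.54, the farnesyltransferase subunit gene FNTB by -0.25 and the protease gene RCE1 by -0.24. ZMPSTE24, the protease that cleaves prelamin A, rose by 0.13, from 48.2 ± 1.67 to 52.7 ± 1.34 FPKM (SD, n = 3), and was not called after rescaling each column to a common total.

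Of the HP1 and peripheral heterochromatin genes, 6 of 10 were lower and 0 higher; quantile normalization gave 5 lower and 1 higher. The H3K9 methyltransferase genes SUV39H1 and SUV39H2 fell by 1.72 and 0.99 on the log2 scale. CBX5, the HP1α gene, fell by 0.84, CBX1 by 0.47 and CBX3 by 0.44, and EHMT2 changed by -0.14. PRR14, a tether of HP1 to the lamina, was at 29.2 FPKM in DMSO and 30.3 FPKM in palbociclib.

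Of the envelope sealing genes, which encode ESCRT-III and its partners, 0 of 8 were lower, 3 were higher and 5 were not called, with a median log2 change of -0.0081. CHMP2A rose by 0.18, IST1 by 0.13 and CHMP4B by 0.11 on the log2 scale. With each column rescaled to a common total 1 of the 8 was lower and 0 higher, so the calls on these genes rest on the scaling. Among sterol genes acting around the C14 reduction step, TM7SF2, the other sterol C14 reductase gene beside LBR, rose from 103.7 ± 3.85 to 162.6 ± 8.37 FPKM (SD, n = 3), a log2 change of 0.64. EBP fell by 0.99 and CYP51A1 by 0.26, so 2 of 5 were lower and 1 higher; rescaling each column to a common total gave 4 lower and 1 higher.

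Some of the smaller calls did not survive leaving out 1 library. Those on LEMD2 and TOR1B were lost without any 1 of DMSO replicates 1, 2 and 3 and palbociclib replicates 2 and 3, with adjusted p up to 0.291 and 0.216 over all alternatives. That on EHMT2 was lost without DMSO replicate 1 or 2 or any palbociclib replicate, with adjusted p up to 0.384 over all alternatives. ZMPSTE24 and CHMP4B were not called without replicate 1 or 2 of either treatment, with adjusted p up to 0.238 and 0.408 over all alternatives. SYNE3 was not called without DMSO replicate 2 or palbociclib replicate 1 or 2, with adjusted p up to 0.0613. RCE1 was not called without DMSO replicate 2, with adjusted p up to 0.103 over all alternatives.

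The splicing tables listed 86 events in 7 of the 8 genes, of which 56 were skipped exons, and none in LMNB2. After the filters on depth and on the minor form 18 events were tested. At an edgeR adjusted p under 0.05 the number called was 0, against 0.35% of all 37445 events tested. At an unadjusted p under 0.05 it was 4, against 8.53% of all events, and the authors' deposited table gives an FDR under 0.05 for 1 of the 86 events, against 2.47% of all 145447. The groups did not overlap for 3 of the 18, against 13.7% of all tested events. Of the 68 events not tested, 50 had an inclusion level of at least 0.95 in all 6 libraries and 6 had at most 0.05, and 5 had under 20 reads on average.

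TMPO held 8 of the 18 tested events, in the run of cassette exons that sets the LAP2 forms. The lowest adjusted p among the members' events belonged to an exon of 120 bases at chr12:98544230-98544349 on the + strand of GRCh38, a multiple of 3 in length. That event sets inclusion of the exon against reads that join the exon ending at 98537572 directly to the one starting at 98544951. Its inclusion level was 0.728, 0.761 and 0.837 in the DMSO libraries and 0.641, 0.670 and 0.702 in the palbociclib libraries. The treated levels were lower without overlap. The means were 0.775 ± 0.0558 and 0.671 ± 0.0305 (SD, n = 3), a difference of -0.104, which edgeR's quasi-likelihood test did not call (adjusted p = 0.223). The authors' deposited table gives this event an FDR of 0.0237. A further event on the same exon, set against reads that join 98537572 to the exon starting at 98544442, was at 0.943 ± 0.0245 in DMSO and 0.945 ± 0.0285 in palbociclib (SD, n = 3), with overlap, and was outside the filter on the minor form. In the event with the lowest adjusted p, inclusion and skipping reads numbered 1017 and 172 in DMSO replicate 1 and 213 and 54 in palbociclib replicate 1, so fewer reads lay behind the treated levels.

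The neighbouring exons of TMPO were also listed in several events each, and those given here were chosen after their values were seen. Against forms joined from the exon ending at 98537572, 2 of them had lower mean levels in palbociclib. The exon of 96 bases at chr12:98544442-98544537 went from 0.749 ± 0.0578 to 0.659 ± 0.0159 (SD, n = 3; edgeR adjusted p = 0.340), without overlap. The exon of 111 bases at chr12:98544951-98545061 went from 0.753 ± 0.0338 to 0.696 ± 0.0435 (SD, n = 3; edgeR adjusted p = 0.492), with overlap. Against forms that keep the exon just before, the 96-base exon was at 0.996 and 0.999 and the 111-base exon at 0.999 and 0.999, in DMSO and palbociclib. The 96-base and 120-base events that differed share the same skipping reads, so the 2 levels are not independent. In BANF1 an exon of 227 bases at chr11:66002844-66003070 was at 0.143, 0.188 and 0.150 in DMSO and at 0.208, 0.205 and 0.202 in palbociclib. It was higher in every treated library, by 0.0447 on average, and was not called (edgeR adjusted p = 0.411).

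**Figure D4:**
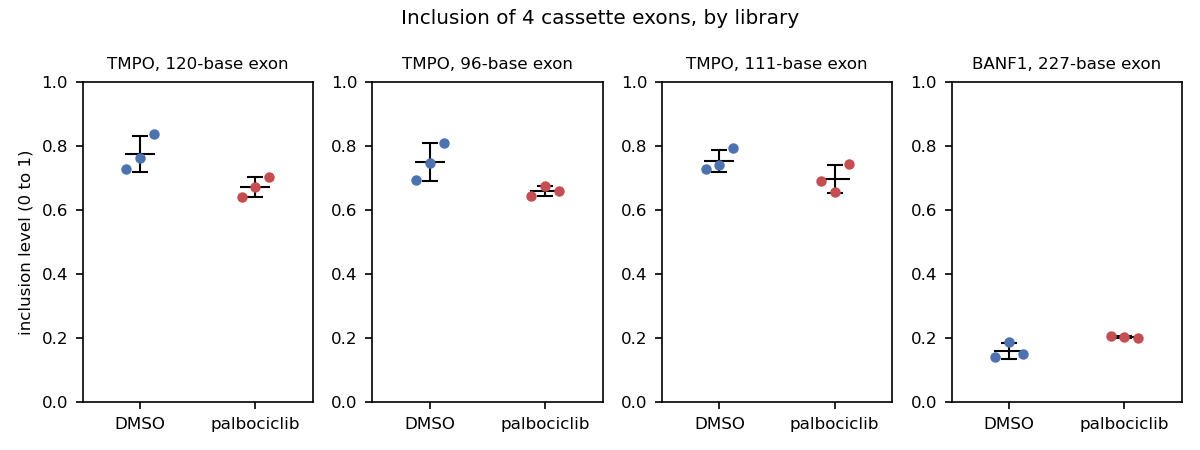
Inclusion level (vertical axis, 0 to 1) of 3 TMPO exons and 1 BANF1 exon in the 3 DMSO and 3 palbociclib RNA libraries; points are libraries, and bars give the mean and SD. In the event drawn, with reads that skip to the exon starting at 98544951 as the other form, the 120-base TMPO exon is lower in all treated libraries, at 0.671 on average against 0.775.

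Chromatin was examined at the same genes. The peak list held 9 peaks in or near 3 of them, 7 in LMNA, 1 in LMNB2 and 1 in TMPO, and 5 members had none. Within 1 kb of a RefSeq start stood 2 peaks. At the edgeR adjusted p threshold 0 of these 2 were called, against 11.9% of all peaks. At an unadjusted p under 0.05 the number was also 0, as with DESeq2. The peak at chr1:156106021-156106632, 84 bases from the downstream LMNA start printed above, had 95.6 ± 1.08 library-scaled counts (CPM) in DMSO and 96.5 ± 4.56 in palbociclib (SD, n = 3; log2 change 0.01, edgeR adjusted p = 0.903). The exon at that start gave 11.2 joined reads in DMSO and 21.9 in palbociclib per 1000 inner junction reads. This peak may thus not mark the start of most LMNA RNA. The peak over the LMNB2 start, chr19:2456751-2457348, had 35.2 ± 2.12 CPM in DMSO and 34.7 ± 1.97 CPM in palbociclib (SD, n = 3; log2 change -0.02, edgeR adjusted p = 0.895), while LMNB2 RNA fell by 1.14 on the log2 scale.

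Of the 7 peaks away from starts, 1 was called, and it was higher; 11.9% of all peaks were called in either direction and 5.41% were called higher, so a count of 1 in 7 lies near the background. It lies at chr1:156086247-156086790, within the LMNA gene span of chr1:156082573-156140081 and 3366 bases from the nearest annotated start; exon or intron was not resolved. Its level was 19.1, 22.7 and 23.1 CPM in DMSO and 28.3, 29.4 and 30.8 CPM in palbociclib, so every treated library was above every control. The log2 change was 0.44 (edgeR adjusted p = 0.000267), and the call held in 10 of 10 alternatives. The other 6 LMNA peaks were not called.

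**Figure D5:**
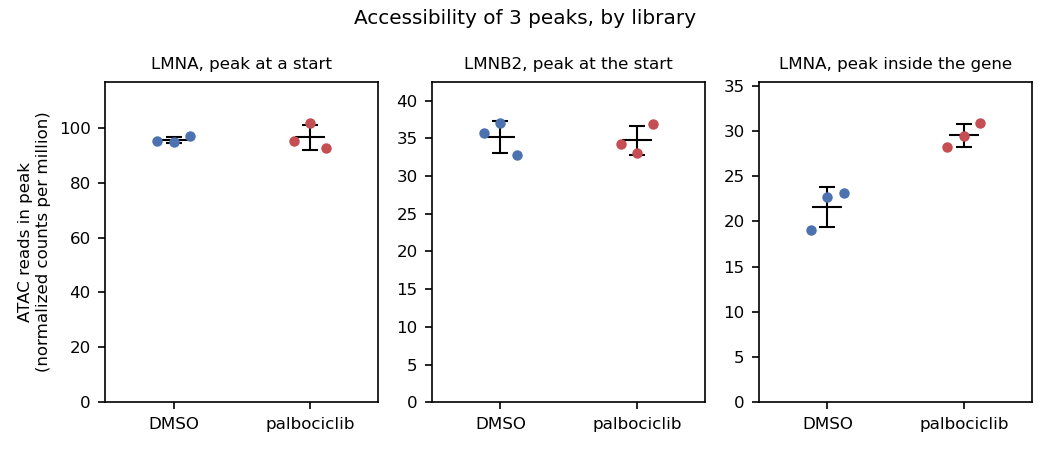
ATAC-seq reads in 3 peaks (vertical axes, library-scaled counts, CPM, from 0) in 3 DMSO and 3 palbociclib libraries; points are libraries, and bars give the mean and SD. The peaks at the downstream LMNA start and at the LMNB2 start overlap between treatments, and the peak inside LMNA is at 21.6 CPM in DMSO and 29.5 CPM in palbociclib.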

How the data were processed

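RNA levels are FPKM as deposited by the authors, 1 column per library. Per the submitters' processing notes, Salmon 1.10.2, STAR 2.7.10b and DESeq2 1.44.0 were used, with GRCh38 as build; which step made the FPKM is not given in the sources used here. The authors' deposited DESeq2 table gives a mean normalized count per gene, a signal value, with a log2 fold change, its standard error and p-values, per the file headers. The authors' splicing tables give counts of inclusion and skipping reads with the inclusion level per library, a score that is the difference of levels, and p-values and FDR, per the file headers. Recomputed and deposited levels differed by at most 0.0005. For ATAC, the authors deposited counts from featureCounts 2.0.6 over 1 peak set, per the file headers; whether read pairs or single reads were counted is not given in the sources used here.

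limma 3.58.1 with an intensity trend in R 4.3.3 was fitted to log2(FPKM + 1) of all genes with a mean of at least 0.5 FPKM, with Benjamini-Hochberg adjustment over all of them and a threshold of 0.05. Fold changes on this scale understate those of low genes. Splicing counts were tested per event type with edgeR 4.0.16, its quasi-likelihood test, with library as a factor and inclusion by treatment as the tested term, for events averaging 20 or more reads in which the rarer form held 5% or more. Peak counts were tested with the same test after TMM normalization and filterByExpr; DESeq2 1.42.0 was an alternative. Functions were tested on simulated data. Exact permutation tests were two-sided. Symbols came from the authors' table for 15427 genes and from a gene name table for 751.

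Named genes were all 8 members, called genes of the 7 lists with some uncalled ones, and the 5 genes nearest to LMNB1. For each member the event with the largest inclusion difference was named among tested events whose groups do not overlap. Only TMPO and BANF1 had such events. Members, lists and motifs were chosen with earlier results of these data known.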

Additional observations from a re-analysis of the deposited data

How the results depend on the processing

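The 7 members called lower stayed called in all alternatives: pseudocount, filter, scaling, trend, a replicate block and each library left out. Across the alternatives the LMNB1 change stayed between -2.71 and -2.54 on the log2 scale. The log2 change in lamin ratio was 1.96 with a pseudocount of 1 FPKM and 2.61 with LMNB1 alone, and 1.99 to 2.01 without single replicates. The 5 list genes called higher became 1 with rescaled columns, 7 with quantile normalization and 3 with no intensity trend, and 3 to 5 without single replicates. The 26 called lower became 32 with rescaled columns and 20 with quantile normalization, and 22 to 25 without single replicates. Fitting the replicate number as a replicate block left 7 members lower and called 1 member splicing event, the 120-base TMPO exon (log2 odds -0.78, adjusted p = 0.0420). Over all alternatives that exon's adjusted p ran from 0.0420 to 0.763 and its direction was lower in 10 of 10. Using column sums as library sizes, an alternative chosen after seeing the data, gave 0 member events and an adjusted p of 0.214 for it. Same-numbered libraries correlated in their deviations at 0.106, -0.005 and 0.088 for RNA and 0.006, 0.042 and -0.028 for ATAC, so the numbers were not taken to pair the libraries. The cause of these shifts was not tested. With 3 libraries per group the lamin ratio cannot reach an exact p under 0.1, and events under 20 reads and peaks not in the list were not assessed.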

Other observations

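In LMNA, reads joining the exon that spans the downstream start (chr1:156106658-156106823) to the next exon at 156114670 were set against reads of an inner junction, from 156137028 to 156137113. Both junctions were chosen after their values were seen. Per 1000 inner junction reads they numbered 17.1, 7.92 and 8.42 in DMSO and 20.3, 22.7 and 22.7 in palbociclib. The treated libraries were above all controls; since the junctions were chosen on these values, no test is given. The junction from the exon at the downstream start had 26 to 98 reads per library.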
